A study of Mus musculus with 8 samples.

Results

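The genes described here are 10 components of the pathways by which cells detect microbial or misplaced nucleic acids and bacterial cell wall material: the Toll-like receptor genes Tlr2, Tlr3, Tlr4, Tlr7 and Tlr9, their adaptor genes Myd88 and Ticam1, the DNA sensor gene Cgas, its adaptor gene Sting1 and the kinase gene Tbk1. They were taken by symbol from the annotation of the array. All 10 were found among 18193 genes, on 19 of 45037 probe sets, and all 10 passed the filter on dim genes that left 13196 genes to test.

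The samples came from 2 established mouse cell lines, the macrophage line RAW264 (RAW) and the colon tumour epithelial line CT26, each on its own or in co-culture with the other. The groups were RAW co-culture, RAW alone, CT26 co-culture and CT26 alone, 4 in all, with 1 array per group in each of 2 experiments. In co-culture, CT26 cells grew in the well of a 12-well plate and RAW cells on a transwell insert, so that soluble molecules passed and the cells did not touch. The cells were left to attach for 8 hours before the inserts were placed, and the labels give no time from there to harvest, no age and no strain. No group carried a transgene, a deletion or a drug according to the labels. RNA was taken from CT26 cells after trypsin and from RAW cells directly in the insert, so line and harvest cannot be told apart. Each line stands for its cell type through 1 established line, and nothing in the labels says that replicates differed in more than the occasion.

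Values are log2 units of the normalised array signal, in which 1 unit is a doubling. The lowest 40% of each array ended at 5.21 to 5.28 log2 units, which is called the floor here, and values near it do not measure a level well. The array medians lay between 5.88 and 5.94. All 11 macrophage markers stood above the floor in RAW co-culture and in RAW alone, and were higher there than in CT26 cells. Krt20, an intestinal keratin, averaged 4.76 ± 0.11 in RAW co-culture and 4.88 ± 0.26 in RAW alone, against 11.47 ± 0.02 in CT26 co-culture and 11.54 ± 0.02 in CT26 alone (SD, n = 2). The epithelial junction genes Cdh1, Cldn7 and Ocln and the brush border gene Vil1 were too dim to test in every group, CT26 included. Of the 5 tested epithelial markers 3 were called between the lines grown alone, against 34.6% of all tested genes. Epcam averaged 6.88 in RAW alone and 6.87 in CT26 alone, and Krt8 5.80 and 5.93. Of the 6 tested mesenchymal markers 5 were called, with a median of RAW alone minus CT26 alone of -5.96. The collagen gene Col1a2 was bright in CT26 cells, as were Fn1 and Sparc, so the labelled epithelial identity rests on a part of its markers. No macrophage, epithelial or mesenchymal marker was called in a co-culture comparison, with 0 of 11, 0 of 5 and 0 of 6 tested. The summed macrophage markers of CT26 cells were 8.94 to 9.07 in co-culture and 8.99 to 9.15 alone on the log2 scale, so no RAW signal beyond the level in CT26 alone was seen in co-cultured CT26 cells.

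Toll-like receptors are membrane proteins that bind microbial molecules. TLR2 and TLR4 work at the cell surface, on bacterial lipoproteins and on lipopolysaccharide, while TLR3, TLR7 and TLR9 work in endosomes, on double-stranded RNA, single-stranded RNA and unmethylated CpG DNA. MyD88 carries the signal of most of them towards NF-kappa B and inflammatory cytokines, and TRIF, the product of Ticam1, carries that of TLR3 and, together with MyD88, that of TLR4. The enzyme cGAS binds DNA in the cytosol and makes a cyclic dinucleotide that activates STING, and the kinase TBK1 then phosphorylates the transcription factor IRF3, which turns on type I interferon. TBK1 also acts below TRIF. Macrophages are known for carrying most of these receptors.

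Each gene was followed through its brightest probe set, and the values of the 2 arrays of a group are given in the order of the experiments. Differences between the lines were estimated by limma over all 8 arrays and all 13196 genes, with Benjamini-Hochberg adjustment and a threshold of 0.05. Between RAW co-culture and CT26 co-culture, 7 of the 10 genes passed, 6 of them higher and 1 lower in RAW, whereas 34.8% of all tested genes passed in either direction. In the cells grown alone the same 7 of 10 passed, in the same directions, against 34.6% of all tested genes. The median difference of the 10 genes was 1.21 log2 units in co-culture and 0.75 alone, and that of all tested genes -0.04 in co-culture and -0.05 alone.

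**Figure D1:**
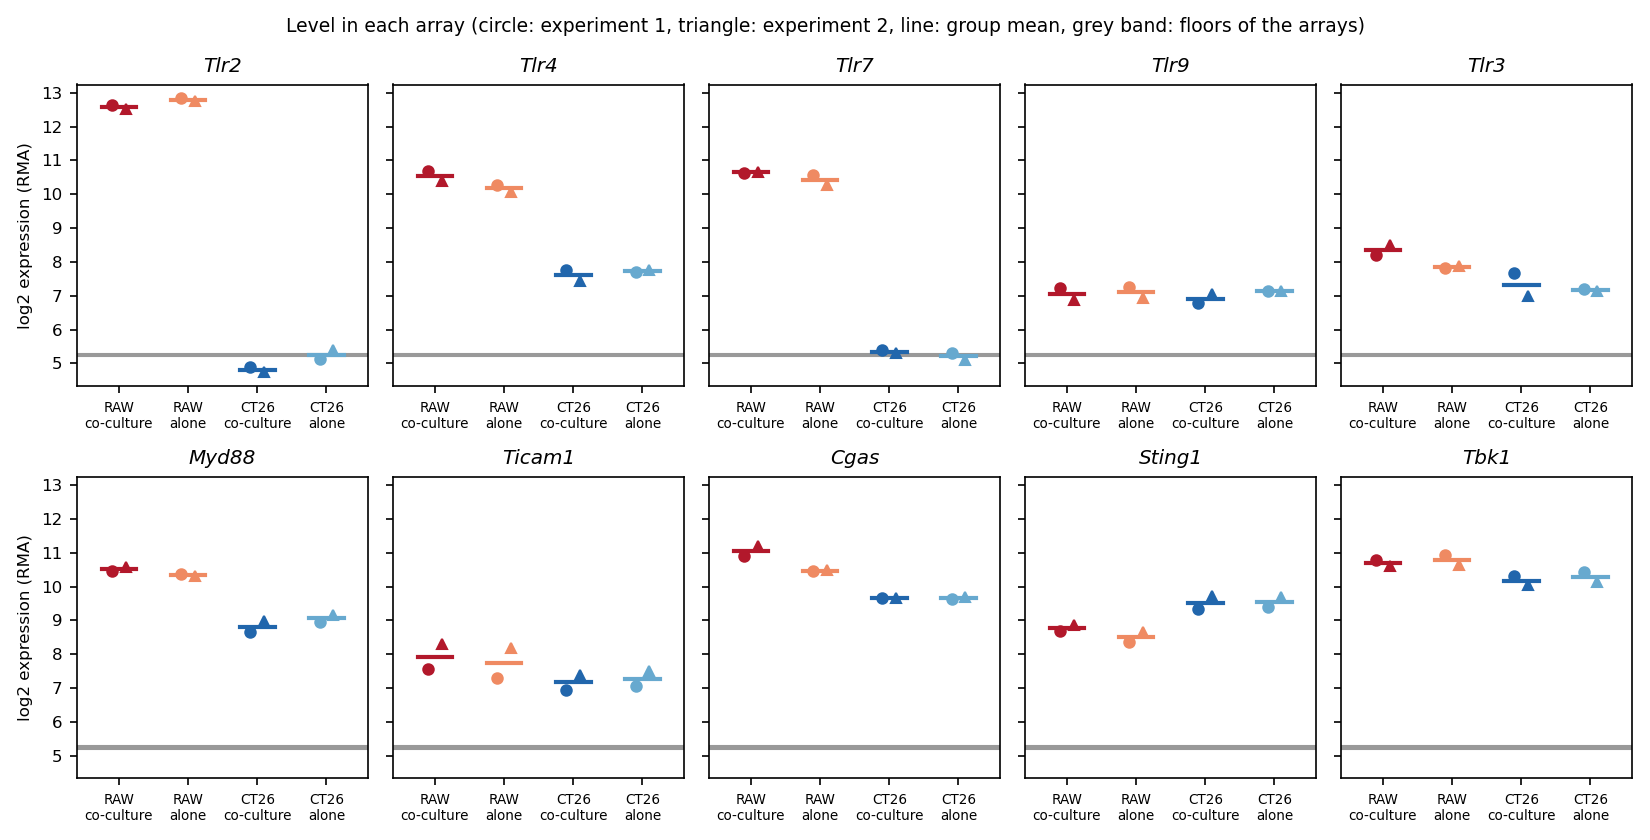
Level of the 10 genes in each array on the log2 scale, with groups from left to right as RAW co-culture, RAW alone, CT26 co-culture and CT26 alone; circles are experiment 1, triangles experiment 2, short lines group means and the grey band the floors of the arrays. Tlr2, Tlr4 and Tlr7 separate the lines by more than 2 log2 units, Sting1 is the gene with lower values in RAW, and Tlr9 lies near 7 in all groups.

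Tlr2, the lipoprotein receptor gene, separated the lines most. Its level was 12.63 and 12.52 in RAW co-culture, against 12.84 and 12.76 in RAW alone, and 4.89 and 4.74 in CT26 co-culture, against 5.13 and 5.40 in CT26 alone. Every RAW array was far above every CT26 array, and in CT26 cells only 1 of the 4 arrays, that of CT26 alone in experiment 2, stood above the floor. With the co-cultured CT26 arrays set to their floors, Tlr2 was at least 158-fold higher in RAW co-culture. The difference as measured was 7.77 ± 0.14 log2 units (limma, adjusted p = 2.44e-07). Between the lines grown alone the difference was 7.54 ± 0.14 log2 units (SE; adjusted p = 2.63e-07). In RAW cells the Tlr2 change in co-culture was -0.22 ± 0.14, with both co-culture arrays below both arrays of RAW alone, and it missed the threshold (adjusted p = 1.00).

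Tlr4, the lipopolysaccharide receptor gene, was measured in both lines. It stood at 10.68 and 10.39 in RAW co-culture, against 10.29 and 10.06 in RAW alone, and at 7.76 and 7.45 in CT26 co-culture, against 7.72 and 7.78 in CT26 alone. All 4 CT26 arrays were above the floor and below all 4 RAW arrays. The line difference was 7.63-fold in co-culture (2.93 ± 0.17 log2 units, adjusted p = 1.60e-05) and 5.38-fold alone (2.43 ± 0.17, adjusted p = 3.90e-05). Its co-culture change in RAW was 0.36 ± 0.17 (adjusted p = 1.00), with no overlap between the arrays, and in CT26 -0.14 ± 0.17 (adjusted p = 1.00), with overlap.

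Of the endosomal receptors, Tlr7 followed the line. The sensor of single-stranded RNA had 10.64 and 10.65 in RAW co-culture, against 10.58 and 10.29 in RAW alone, and 5.40 and 5.30 in CT26 co-culture, against 5.32 and 5.10 in CT26 alone. The CT26 values lay close to the floor, so the size of the gap is not well measured. Tlr7 was higher by 5.29 ± 0.14 log2 units in RAW co-culture than in CT26 co-culture (adjusted p = 6.58e-07) and by 5.23 ± 0.14 in RAW alone than in CT26 alone (adjusted p = 6.58e-07). Its change in co-cultured RAW cells was 0.21 ± 0.14 and in co-cultured CT26 cells 0.14 ± 0.14, neither past the threshold (adjusted p = 1.00 each).

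Tlr9, the CpG DNA receptor gene, gave no such separation. Its values were 7.23 and 6.88 in RAW co-culture, against 7.27 and 6.93 in RAW alone, and 6.78 and 7.05 in CT26 co-culture, against 7.13 and 7.14 in CT26 alone. The 4 groups overlapped, apart from CT26 co-culture, whose arrays both lay below those of CT26 alone. The line difference in co-culture was 0.14 log2 units, with a 95% confidence interval of -0.30 to 0.57 (adjusted p = 0.620), and alone -0.04, with an interval of -0.47 to 0.40 (adjusted p = 0.905).

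Tlr3, the receptor gene for double-stranded RNA, lay between these patterns. It had 8.21 and 8.49 in RAW co-culture, against 7.83 and 7.90 in RAW alone, and 7.66 and 7.00 in CT26 co-culture, against 7.20 and 7.14 in CT26 alone. RAW exceeded CT26 in every array of the same condition. The difference was 1.02 ± 0.22 in co-culture (adjusted p = 0.0113) and 0.70 ± 0.22 alone (adjusted p = 0.0499). The call in cells grown alone was lost when any 1 of 6 of the 8 arrays was left out (adjusted p 0.0610 to 0.180), and also without the filter on dim genes (0.0567), with cyclic loess (0.0541) and with trended, robust variances (0.0552). Without the RAW co-culture array of experiment 2, the difference between the co-cultured lines was 0.88 (adjusted p = 0.0635). In RAW cells the Tlr3 change in co-culture was 0.49 ± 0.22, with no overlap, and it did not pass (adjusted p = 1.00). CT26 cells gave 0.47 in experiment 1 and -0.14 in experiment 2.

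Both adaptor genes had a single probe set each. Myd88, the adaptor shared by most of the receptors, had 10.46 and 10.58 in RAW co-culture, against 10.36 and 10.31 in RAW alone, and 8.65 and 8.98 in CT26 co-culture, against 8.95 and 9.17 in CT26 alone. RAW and CT26 arrays did not overlap, and Myd88 was higher in RAW by 1.71 ± 0.15 in co-culture (adjusted p = 0.000155) and by 1.27 ± 0.15 alone (adjusted p = 0.000657). Its co-culture change was 0.18 ± 0.15 in RAW and -0.25 ± 0.15 in CT26 (adjusted p = 1.00 each).

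Ticam1, which encodes TRIF, differed between the experiments in every group. The values were 7.56 and 8.29 in RAW co-culture, against 7.30 and 8.20 in RAW alone, and 6.94 and 7.39 in CT26 co-culture, against 7.05 and 7.50 in CT26 alone. Experiment 2 gave the higher value in all 4 groups, by 0.45 to 0.90 log2 units. Its line difference of 0.76 ± 0.37 in co-culture did not pass (adjusted p = 0.170), but did with the experiment as a replicate block (adjusted p = 0.00276) or as a block within each line (0.000257). In cells grown alone the difference was 0.47 ± 0.37 (adjusted p = 0.386), which both blocks also moved past the threshold (0.0224 and 0.00292).

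Cgas, the gene of the cytosolic DNA sensor, stood above the floor in both lines and had the largest co-culture change of the 10 genes in RAW. It stood at 10.91 and 11.21 in RAW co-culture, against 10.46 and 10.48 in RAW alone, and at 9.65 and 9.67 in CT26 co-culture, against 9.63 and 9.70 in CT26 alone. The co-cultured RAW arrays lay above those of RAW alone in both experiments, while the 4 CT26 arrays overlapped and lay between 9.63 and 9.70. The order was RAW co-culture, RAW alone and then the CT26 groups, which did not differ beyond their spread. Cgas was higher in RAW than in CT26 by 1.40 ± 0.13, or 2.64-fold, in co-culture (adjusted p = 0.000203) and by 0.80 ± 0.13 alone (adjusted p = 0.00316).

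The Cgas change in RAW was 0.59 ± 0.13 log2 units, or 1.51-fold, with a 95% confidence interval of 0.28 to 0.90. It did not pass over all genes (adjusted p = 0.298), nor with a replicate block shared by the lines (0.0626, where 1.11% of genes passed), but did with a replicate block per line (0.0256). A second Cgas probe set had 9.82 and 10.16 in RAW co-culture, against 9.26 and 9.77 in RAW alone, a change of 0.47 ± 0.22 that did not pass in the fit with a block per line over all probe sets (adjusted p = 0.120), where the first probe set did (0.0474). In a bulk culture, more cells that carry a transcript and more of it per cell cannot be told apart. In CT26 the Cgas change was -0.01 ± 0.13, with an interval of -0.32 to 0.31.

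Sting1, the adaptor gene below cGAS, was the only one of the 10 genes called lower in RAW. It had 8.68 and 8.86 in RAW co-culture, against 8.35 and 8.66 in RAW alone, and 9.32 and 9.72 in CT26 co-culture, against 9.41 and 9.70 in CT26 alone. Every RAW array was below every CT26 array. The difference was -0.75 ± 0.19 in co-culture (adjusted p = 0.0229) and -1.05 ± 0.19 alone (adjusted p = 0.00545). The call in co-culture was lost without either RAW co-culture array (adjusted p = 0.104 and 0.0539) or without the CT26 co-culture array of experiment 2 (0.127). In RAW cells its co-culture change of 0.27 ± 0.19 missed the threshold (adjusted p = 1.00).

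Tbk1, the kinase gene on which the STING and TRIF routes meet, was bright in both lines. It had 10.79 and 10.62 in RAW co-culture, against 10.94 and 10.65 in RAW alone, and 10.31 and 10.04 in CT26 co-culture, against 10.43 and 10.13 in CT26 alone. RAW values were above CT26 values in all arrays, and experiment 1 gave the higher value in every group. The difference in co-culture, 0.53 ± 0.18, did not pass (adjusted p = 0.0560), but passed with a replicate block (0.00205) and when all probe sets of a gene were averaged (0.62, adjusted p = 0.0103). The difference alone was 0.51 ± 0.18 (adjusted p = 0.0635, with a block 0.00248, and averaged 0.60 with an adjusted p of 0.0121). With a replicate block per line, 9 of the 10 genes passed between the lines, in either condition, the exception being Tlr9, against 58% of all genes in co-culture and 58.6% alone. With the shared block these shares of all genes were 52.1% in co-culture and 52.9% alone.

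By group means, Tlr3 and Tlr7 ran from RAW co-culture over RAW alone and CT26 co-culture to CT26 alone. Tlr4, Cgas, Myd88 and Ticam1 kept that order in RAW but had CT26 alone above CT26 co-culture, and Tlr2 and Tbk1 ran from RAW alone over RAW co-culture to CT26 alone and CT26 co-culture. Sting1 ran from CT26 alone over CT26 co-culture and RAW co-culture to RAW alone. Neighbours in these orders that are the same line did not pass without a block, so their order is not shown. The steps from RAW to CT26 cross conditions for Tlr2, Tlr3, Tlr7 and Tbk1 and were not tested as such. For Tlr4, Cgas, Myd88 and Ticam1 the step is that between the lines grown alone, which passed for all but Ticam1. The step of Sting1 is that between the co-cultured lines, which passed.

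**Figure D2:**
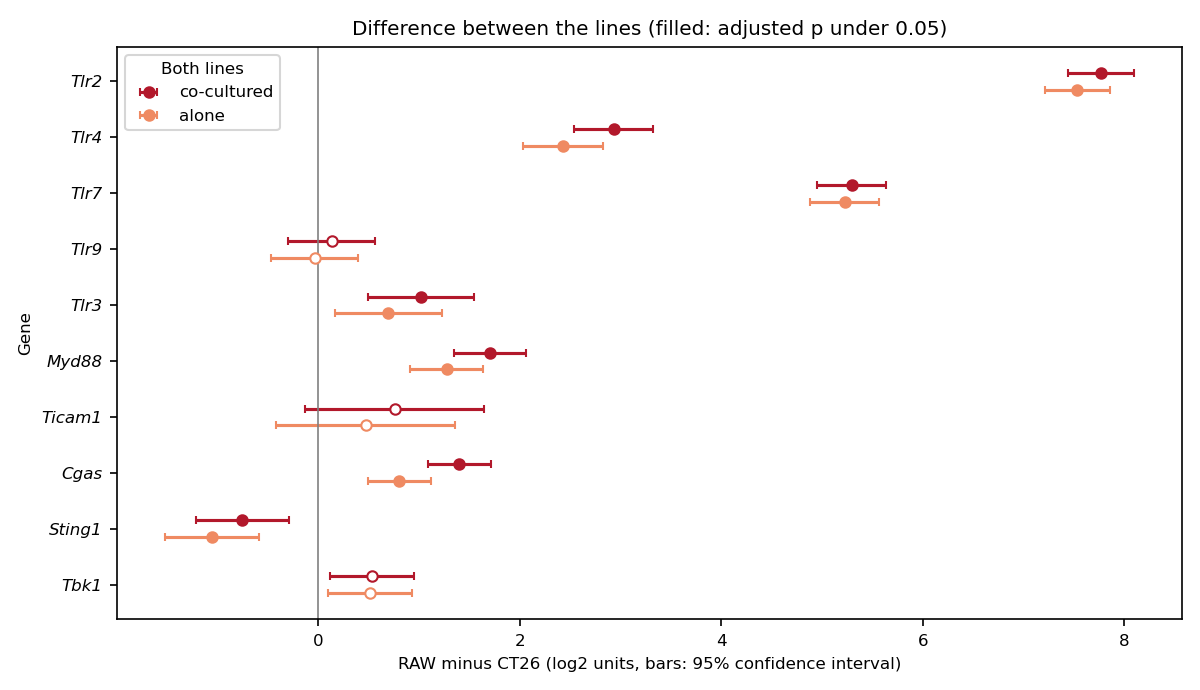
Difference between RAW and CT26 for the 10 genes in log2 units, in co-culture (dark red) and alone (orange), with 95% confidence intervals; filled points have an adjusted p under 0.05. In co-culture Tlr7 reaches 5.29 and Tlr4 2.93, while the Tlr2 point is set against CT26 arrays under the floor, so that its difference is known only to be at least 7.30. Sting1 lies below 0 in both conditions and Tlr9 covers 0 in both.

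Across the co-culture comparison of the RAW cells, the 10 genes gave small values of mostly 1 direction. None of the 10 passed (0 of 10 in limma, against 0.25% of all tested genes), and 1 of 10, Cgas, had an unadjusted p under 0.05, against 5.26% of genes. With a replicate block per line 1 of 10 passed, again Cgas, against 3.56% of genes. Co-culture was above RAW alone in both experiments for 7 of the 10 genes and below it in both for the other 3, whereas 32.5% and 29.1% of all tested genes did so. Both co-culture arrays exceeded both arrays of RAW alone for Tlr3, Tlr4, Tlr7, Cgas, Myd88 and Sting1, 6 of 10 genes against 14.2% of all tested genes, and lay below them for Tlr2, 1 of 10 against 12.3%. The median change of the 10 genes was 0.20 log2 units, and that of all tested genes 0.01. All these values rest on the brightest probe set of each gene. Both dimmer Tlr7 probe sets had opposite signs in the experiments (-0.22 and 0.48, -0.05 and 0.14). So had the second Tbk1 probe set (-0.20 and 0.05). The other probe sets of Tlr3, Tlr4, Cgas and Sting1 that passed the filter rose in both experiments. Of these, the second of Sting1 and the dimmest of Tlr4 overlapped between the groups.

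In co-cultured CT26 cells, 0 of 10 genes passed, as did 0% of all tested genes, and no fit with a block changed that. Only Tlr2 had an unadjusted p under 0.05 in limma, 1 of 10 against 0.811% of genes, with a change of -0.45 ± 0.14 among values near or under the floor. Both co-culture arrays lay below both arrays of CT26 alone for Tlr2 and Tlr9, 2 of 10 against 11.3% of genes, and above them for 0 of 10 against 9.69%. Signs agreed between the experiments for 6 of the 10 genes, 1 higher (Tlr7) and 5 lower. Of all tested genes, 23.8% were higher and 30.1% lower in both experiments. The signs were opposite for Tlr3, Tlr4, Cgas and Sting1. The median change was -0.11 log2 units, against -0.01 for all tested genes.

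The co-culture change in RAW minus that in CT26 was positive for the brightest probe sets of all 10 genes. The share of positive values among all tested genes was not computed. The median was 0.29 log2 units for the 10 genes and 0.02 for all tested genes. Tbk1, at 0.02, and Tlr7, at 0.07, lay near 0, and the dimmest Tlr7 probe set gave -0.25. For Tlr2, Tlr9 and Tbk1 the change was negative in both lines. The difference passed for 0 of 10, against 0.00758% of all tested genes. At an unadjusted p under 0.05 limma gave 1 of 10, against 2.49%. That gene was Cgas, with 0.60 ± 0.19 log2 units (adjusted p = 1.00, and 0.148 with a replicate block per line). Next came Tlr4, with 0.50 ± 0.23, and Myd88, with 0.43 ± 0.21. A different response of the lines was therefore not shown for any of the 10 genes.

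**Figure D3:**
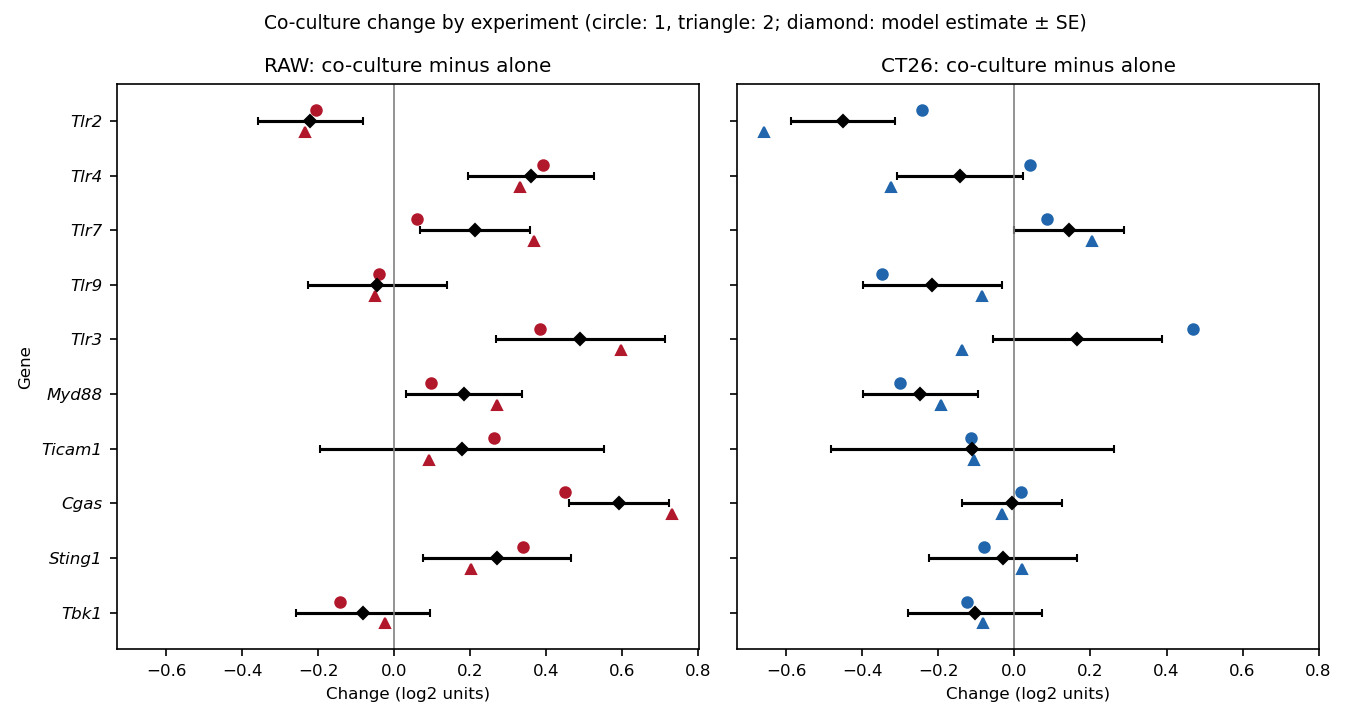
Co-culture minus alone in log2 units for RAW (left) and CT26 (right), with the difference within experiment 1 (circles) and experiment 2 (triangles) and the model estimate ± SE (diamonds). Cgas has the largest estimate in RAW, 0.59, and lies at -0.01 in CT26; Tlr3 in CT26 shows opposite signs in the experiments.

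Different probe sets of a gene gave the same direction between the lines grown alone in all 6 genes with more than 1 probe set that passed the filter. The brightest Tlr7 probe set gave 5.23 log2 units. For the other 2 all CT26 arrays lay under the floor, so that RAW alone was at least 3.32-fold and at least 3.40-fold higher there, and sizes cannot be compared between these probe sets. Tlr4 gave 2.43, 2.69 and 2.25. Another Tlr4 probe set stayed too dim to test. The second Sting1 probe set was lower in RAW too, at -1.18 ± 0.24 (adjusted p = 0.00975 over all probe sets), and the second Tbk1 probe set was higher by 0.69 ± 0.13 (adjusted p = 0.00765), where the brightest did not pass (0.0761). For Tlr3 neither probe set passed in that fit, at 0.70 (adjusted p = 0.0607) and 0.47 (adjusted p = 0.0908), and the second had both CT26 alone arrays and 1 of the 2 arrays of RAW alone under the floor.

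**Figure D4:**
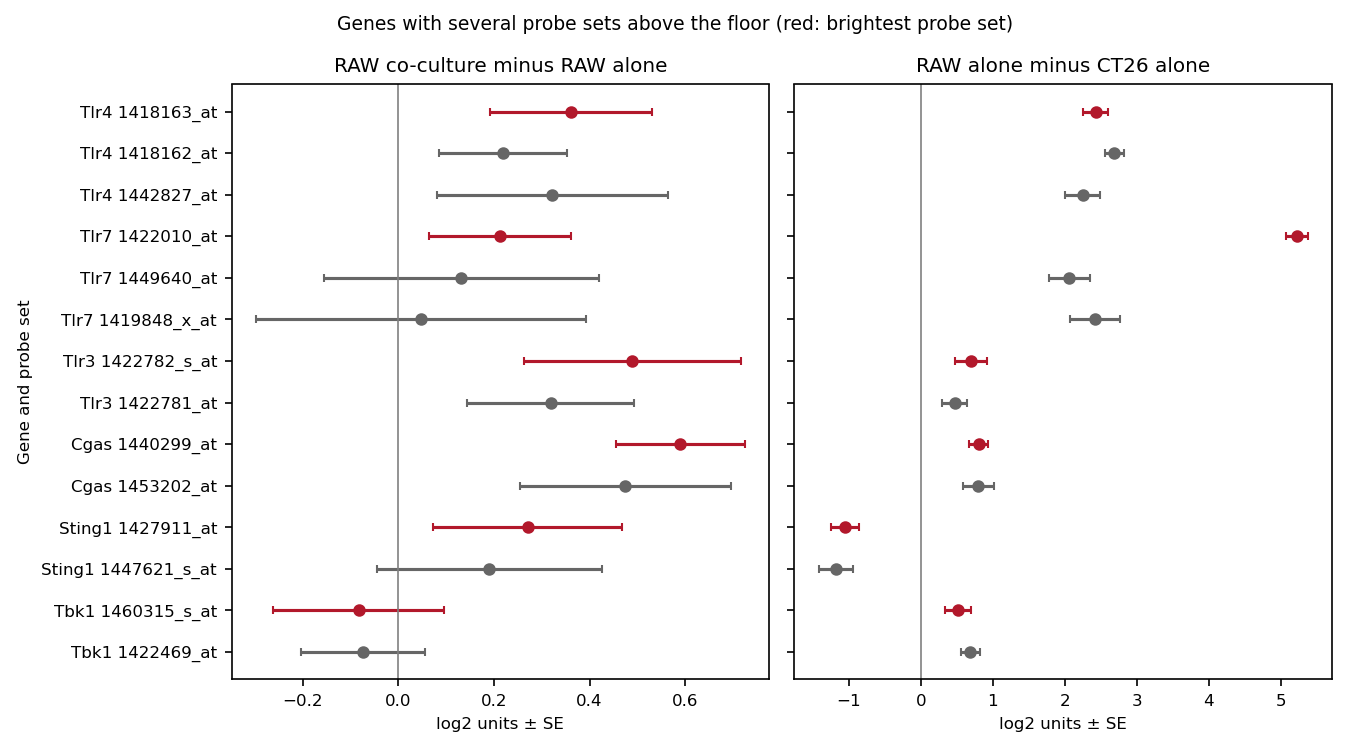
Every probe set that passed the filter, for the 6 genes that have several, for RAW co-culture minus RAW alone (left) and RAW alone minus CT26 alone (right), in log2 units ± SE; red marks the brightest probe set of a gene. All Tlr7 probe sets lie above 0 between the lines, the dimmer ones against CT26 arrays under the floor, and both Sting1 probe sets lie below -1.

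Promoter sequences, from 250 bases before to 50 bases after the gene start, are given for 3 genes, chosen after their values were seen. Tlr3 and Myd88 have windows that hold a searched motif, and Cgas, whose window holds none, has the largest co-culture estimate in RAW. They come from RefSeq (GRCm38.p6), which gave this window for 7 of the 10 genes. Both strands were searched for the core of the interferon-stimulated response element (GAAA and GAAA, 2 bases apart), for a kappa B core (GGGA and TTTCC, 1 base apart) and for a STAT element (TTCNNNGAA). Capitals mark matches. The windows are Tlr3 at chr8:45410331-45410630, Myd88 at chr9:119339969-119340268 and Cgas at chr9:78443188-78443487, all on the minus strand and written in the direction of transcription.
Tlr3: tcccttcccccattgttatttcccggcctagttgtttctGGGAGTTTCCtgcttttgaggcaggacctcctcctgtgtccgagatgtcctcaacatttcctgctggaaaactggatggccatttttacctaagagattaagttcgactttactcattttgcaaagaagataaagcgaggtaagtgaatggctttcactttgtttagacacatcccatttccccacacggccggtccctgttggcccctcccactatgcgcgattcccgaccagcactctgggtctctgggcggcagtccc
Myd88: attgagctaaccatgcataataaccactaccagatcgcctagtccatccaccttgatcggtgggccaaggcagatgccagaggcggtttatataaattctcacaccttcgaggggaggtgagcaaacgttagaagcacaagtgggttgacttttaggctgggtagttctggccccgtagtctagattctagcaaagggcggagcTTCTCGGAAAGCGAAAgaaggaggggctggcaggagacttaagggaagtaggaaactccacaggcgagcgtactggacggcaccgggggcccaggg
Cgas: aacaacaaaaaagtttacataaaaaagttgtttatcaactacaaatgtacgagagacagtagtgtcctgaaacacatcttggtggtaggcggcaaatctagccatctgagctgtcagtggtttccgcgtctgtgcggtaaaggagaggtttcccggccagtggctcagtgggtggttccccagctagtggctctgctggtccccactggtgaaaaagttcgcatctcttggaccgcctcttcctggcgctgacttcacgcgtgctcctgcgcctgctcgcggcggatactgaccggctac
The kappa B core of Tlr3 began 211 bases before the gene start and occurred in 0.411% of 32851 promoters of this length. In Myd88 the response element core began 40 bases before the start, a motif of 3.44% of promoters, and the STAT element, found in 8.30%, overlapped it and began 46 bases before. The windows of Tlr2, Tlr9, Tbk1, Ticam1 and Cgas held none of these letters, which says nothing of the factors.

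Around the 10 genes, 78 other genes of the same pathways had been listed by role, of which 69 were on the array with a probe set of their own and 65 were tested. Between the lines grown alone, 27 were higher and 5 lower in RAW, against 17% and 17.6% of all tested genes in each direction. Among the other Toll-like receptors 4 of 5 were higher, of which Tlr13, a mouse sensor of bacterial ribosomal RNA, had 10.13 and 10.29 in RAW alone, against 4.91 and 4.82 in CT26 alone, at least 30.9-fold more (adjusted p = 3.73e-07). Receptor partners and chaperones were higher in 7 of 10. Cd36, a scavenger receptor that assists TLR2, was at least 386-fold higher (adjusted p = 2.54e-07) and Ly86, a partner of the receptor-like CD180, at least 173-fold higher (adjusted p = 2.10e-06). The CT26 values of these 3 genes lay under the floor and were set to it for the folds. Their adjusted p belong to the differences as measured.

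Among the partners that TLR4 and the endosomal receptors need, Unc93b1, Cd14 and Ly96 were also higher in RAW alone. These 3 were picked after their values were seen, and 3 of the 10 listed partners and chaperones were not called. Unc93b1, the chaperone of endosomal receptors, had 10.06 and 11.08 in RAW alone, against 6.11 and 6.08 in CT26 alone (4.47 ± 0.53 log2 units, adjusted p = 0.000623). Cd14 and Ly96, the co-receptors that hand lipopolysaccharide to TLR4, were higher by 4.32 ± 0.14 and 1.99 ± 0.29 (adjusted p = 1.12e-06 and 0.00180). CT26 cells still had 10.14 and 10.04 of Cd14 in co-culture and 10.19 and 10.29 alone, far above the floor. Further down, Pik3ap1, an adaptor of the receptors, was higher in RAW by 6.59 ± 0.19 and Irf5, a transcription factor activated through MyD88, by 4.88 ± 0.39 (adjusted p = 6.79e-07 and 8.89e-05). For Pik3ap1, 1 of the 2 arrays of CT26 alone lay under the floor, so the size of its difference is not well measured.

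The 5 genes called lower in RAW alone were Ifi204, Sigirr, Ccl5, Cyld and Rnaseh2a. Sigirr, an inhibitor of these receptors, had 7.01 and 6.91 in RAW alone, against 9.96 and 9.99 in CT26 alone (-3.02 ± 0.15, adjusted p = 7.33e-06). Ifi204, a DNA-binding protein of the interferon-inducible p200 family, was at least 7.25-fold lower with its RAW alone arrays set to their floors. Its adjusted p of 0.00163 belongs to the difference as measured, and it has close relatives whose probes may share signal. The chemokine gene Ccl5 differed by -1.05 ± 0.15, the deubiquitinase gene Cyld by -0.67 ± 0.18 and Rnaseh2a, of ribonuclease H2, by -0.46 ± 0.14 (adjusted p = 0.00178, 0.0261 and 0.0430). Leaving out 1 array ended the calls of Cyld (adjusted p up to 0.145) and Rnaseh2a (up to 0.194). In co-culture 27 were higher and 5 lower, against 17.7% and 17% of all tested genes, with the ubiquitin ligase gene Trim56 (-1.04 ± 0.21, adjusted p = 0.00774) in place of Cyld. There Rnaseh2a differed by -0.46 ± 0.14 in limma (adjusted p = 0.0444) and did not pass with trended, robust variances (0.0551). Its difference in co-culture ranged from -0.54 to -0.37 when 1 array was left out. With a replicate block per line, 33 were higher and 11 lower in co-culture, against 29% and 28.9% of all tested genes, and 30 were higher and 10 lower alone, against 28.3% and 30.4%.

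In co-cultured RAW cells 1 of 65 of these genes was higher and 0 lower, against 0.167% and 0.0834% of all tested genes. It was Irf7, an interferon-induced transcription factor below TLR7 and TLR9, with 10.43 and 11.53 in RAW co-culture, against 6.70 and 7.77 in RAW alone (3.74 ± 0.47 log2 units, adjusted p = 0.0445). It was higher within both experiments, and the call was lost when any 1 of the 8 arrays was left out (adjusted p 0.0742 to 0.249) or when the RAW arrays were fitted alone (0.198), but not with a replicate block per line (3.86e-05). That block added 3 genes, named after their values were seen: Ikbke, a relative of TBK1, at 0.63 (adjusted p = 0.0339), Cd36 at -0.67 (0.0267) and the DNase gene Dnase2a at -0.55 (0.0431). With it 4 of 65 passed, against 3.56% of all genes, and none of these 3 passed with the block shared by the lines (adjusted p = 0.304, 0.0578 and 0.148) or in limma without a block. Leaving out 1 array gave 0.16 to 1.11 for Ikbke, lowest without the RAW co-culture array of experiment 2, and -0.86 to -0.24 for Dnase2a, smallest without the RAW alone array of experiment 1. In CT26 cells 0 of 65 passed in limma, 1 of 65 at an unadjusted p under 0.05, and the smallest p belonged to Ccl5, with a change of 0.41 ± 0.15, and Tlr13, with 0.29 ± 0.13 near the floor (adjusted p = 1.00 each). The difference between the lines' responses passed for 0 of 65 (3 at an unadjusted p under 0.05), with Irf7 at 3.14 ± 0.66 (adjusted p = 0.643, but 0.00140 with a replicate block per line, where 0.743% of all genes passed) and Tlr8 at 0.56 ± 0.16 (adjusted p = 1.00).

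**Figure D5:**
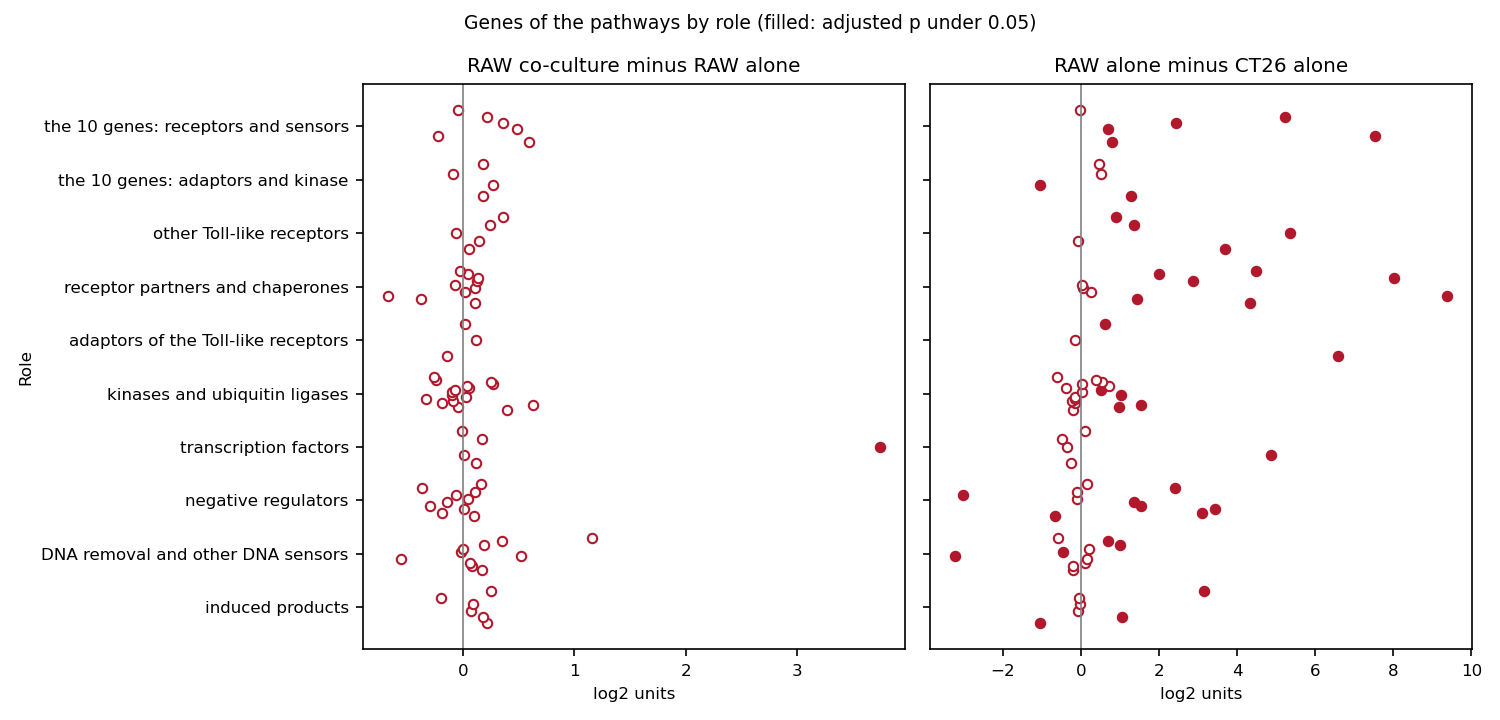
Change of the 10 genes and the other tested pathway genes by role, for RAW co-culture minus RAW alone (left) and RAW alone minus CT26 alone (right), in log2 units, 1 point per gene; filled points have an adjusted p under 0.05. The single filled point on the left is Irf7 at 3.74, while on the right receptors, partners and adaptors reach beyond 5.

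The genes with the most similar profiles over the 8 arrays were found by Euclidean distance between values after each gene's mean was subtracted, and they are a description over 4 groups that share 2 lines. The nearest profiles to Tlr2 were those of Dock10, Cybb and Fermt3 (0.667, 0.678 and 0.725 log2 units). Clec4a3, Lat2 and Itgam came closest to Tlr7 (0.284 to 0.381), and Ccdc28b, Rab39 and Grap to Tlr4 (0.287 to 0.463). Of these, Cybb and Itgam are macrophage markers. Around Cgas stood Snx2, Fam72a and Creld2 (0.317 to 0.354), around Sting1 Phf19, Cpne1 and Wwox (0.148 to 0.175) and around Tlr3 Nlrc5, Lgals8 and Tor1aip2 (0.396 to 0.442). For Myd88 they were Kank3, Itga7 and Cmpk1 (0.238 to 0.288), for Ticam1 Gorasp1, Ppargc1b and Smox (0.265 to 0.285), for Tbk1 Vti1b, Gtf2e1 and Ythdf3 (0.0867 to 0.124), and for Tlr9 Meltf, Eri1 and Ccn5 (0.180 to 0.214). Flat profiles have small distances by construction.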

How the data were processed

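Total RNA of 8 samples was measured on single-colour Affymetrix arrays. Per the submitters' processing notes, the authors made the deposited log2 values with RMA and affy. Versions of both are not stated in the sources used here. Such values share nearly 1 distribution over arrays, which removes changes in total RNA, and RMA compresses low signals, so folds near the floor are understated. The number of arrays limits the precision.

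Gene symbols came from the annotation of the platform. Of 45037 probe sets (64 controls left out of 45101), 34945 had 1 symbol, 932 several and 9160 were not listed. A gene was represented by its brightest probe set with 1 symbol and tested if in at least 1 group both of its values exceeded their array's lowest 40%. A model of the 4 group means was fitted with limma 3.58.1 in R 4.3.3 (4 residual degrees of freedom), two-sided, with Benjamini-Hochberg adjustment over 13196 genes, or 28287 probe sets, and was tested on simulated data. There 61% of RAW co-culture changes of 1 log2 unit and 91% of those of 2 were called, and smaller changes were not simulated. The simulated arrays shared no difference between experiments, unlike the real ones. Errors after ± are standard errors of the model unless marked SD. P-values of fits without a block measure the spread between 2 experiments, which may be technical. Where the experiment is in the model its mean shift is taken out. Those p-values measure how far the differences between groups disagree from one experiment to the other, which may also be technical. Such fits keep 3 residual degrees of freedom if both lines have the block in common, and 2 if each has its own.

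The labels mark replicate numbers as occasions. When group means were subtracted, arrays of the same number correlated at 0.484 to 0.765 across genes in every pair of groups, so the numbers pair the samples. No block was in the main fit, and fits with the experiment as a block were alternatives. Other alternatives were the filter, the probe sets, cyclic loess, variances, 1 line alone and leaving out each array. The members and lists were chosen with earlier results of these data known. Named genes were all 10 members, up to 5 called pathway genes per direction, or the 2 with the smallest p where none passed, and the 3 nearest profiles per member.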

Additional observations from a re-analysis of the deposited data

How the results depend on the processing

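Of the values recomputed under alternatives, 595 of 623 kept direction and side of the threshold under settings other than leaving out an array (4 reversed, 7 lost a call and 17 gained one). When 1 array was left out, 613 of 680 did, 29 reversed and 38 lost a call. Many of these directions could not change, so the tallies are largely fixed by construction. Blocks, filters, variances and 1 line alone leave the estimate as it is, while averaged probe sets and cyclic loess can move it. Leaving out an array of a group outside a comparison also leaves its estimate as it is. With the replicate pairing as 1 block common to the lines, the genes called were 146 in RAW co-culture against RAW alone (33 without it), 11 in the difference of responses (1 without) and 6978 between the lines alone (4563 without), with 6873 in co-culture (4587 without). With a replicate block per line the counts were 470, 98 and 7735, and 7652 between the lines in co-culture, and among the 10 genes 1 in RAW co-culture. Of the other pathway genes that block called 4 in RAW co-culture and 1 in the difference of responses. Both blocks called Ticam1 and Tbk1 between the lines, and no other call on the 10 genes changed apart from Cgas. Fitted to RAW arrays alone, RAW co-culture gave 4 genes and 0 other pathway genes, and trended, robust variances gave 4 genes in the difference of responses.

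Leaving out 1 array gave 2 to 30 genes in RAW co-culture, with 0 to 0 other pathway genes, 0 to 2 in the difference of responses, 3138 to 4485 between the lines alone and 3342 to 4464 in co-culture. Of the 10 genes, 6 to 7 were called between the lines alone and 5 to 7 in co-culture. Small changes turned sign. The CT26 co-culture change of Cgas was 0.00047 when probe sets were averaged and 0.0236 with cyclic loess, that of Sting1 0.0107 when probe sets were averaged, and the Tbk1 difference of responses -0.0303 with cyclic loess. Without 1 array, RAW co-culture changes ranged from -0.22 to 0.13 for Tlr9, -0.27 to 0.63 for Ticam1 and -0.23 to 0.0618 for Tbk1. The CT26 ranges were -0.17 to 0.50 for Tlr3, -0.30 to 0.0105 for Tlr4, -0.0408 to 0.0275 for Cgas, -0.34 to 0.12 for Ticam1, -0.23 to 0.17 for Sting1 and -0.26 to 0.0505 for Tbk1. Differences of responses ranged from -0.0095 to 0.66 for Tlr3, -0.0777 to 0.21 for Tlr7, -0.0024 to 0.34 for Tlr9, -0.16 to 0.74 for Ticam1 and -0.13 to 0.17 for Tbk1. Between the lines Tlr9 ranged from -0.20 to 0.13 alone and from -0.0382 to 0.31 in co-culture. The cause of these shifts was not tested, apart from the fewer arrays. The block per line for single Cgas probe sets was chosen after seeing the data. Signal near the floor limits Tlr2 and Tlr7 in CT26.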

Other observations

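Products that these pathways are known to induce were also measured. Tnf, an inflammatory cytokine gene, had 10.06 and 10.82 in RAW co-culture, against 10.22 and 10.17 in RAW alone, and 6.89 and 6.94 in CT26 co-culture, against 6.92 and 7.15 in CT26 alone. It was higher by 3.16 ± 0.24 log2 units in RAW alone than in CT26 alone (limma, adjusted p = 6.80e-05), and its change in co-cultured RAW cells was 0.25 ± 0.24 (adjusted p = 1.00). The chemokine gene Cxcl10 was higher by 1.04 ± 0.32 in RAW alone than in CT26 alone (adjusted p = 0.0453), a call lost when any 1 of 5 arrays was left out (adjusted p 0.0514 to 0.231) or without the filter on dim genes (0.0526). Between the co-cultured lines the Cxcl10 difference was 0.49 ± 0.32 (adjusted p = 0.296, and 0.0188 with a replicate block per line). Its co-culture changes were 0.18 ± 0.32 in RAW and 0.73 ± 0.32 in CT26 (adjusted p = 1.00 each). Tnf and Cxcl10 were picked after their values were seen. Ifnb1, the interferon beta gene, lay between 5.02 and 5.33 in all 8 arrays, at the floor. Il6, Il12b and Ifna4 were too dim to test. Of the 6 tested products, 0 were called in either co-culture comparison, with 0 in RAW and 1 in CT26 at an unadjusted p under 0.05.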
